A study of Mus musculus with 32 samples.

Results

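Complexes II to V of the respiratory chain and cytochrome c were followed as transcripts in mouse CD4+ T cells. Members were the gene rows named Sdha, Sdhb, Sdhc, Sdhd, Cyc1 or Cycs, or with a symbol that starts with Uqcr, Cox4, Cox5, Cox6, Cox7, Cox8 or Atp5, which gave 49 of the 24302 genes counted. By known role, 4 belong to complex II, 9 to complex III, 1 is cytochrome c, 18 belong to complex IV by name and 15 to ATP synthase, also called complex V. The last 2, Atp5s and Atp5sl, carry the prefix but are now named Dmac2l and Dmac2 and are not counted as subunits, which leaves 47. A filter on low counts passed 45 of the 49 to the tests, and Cox7a1, Cox7b2, Cox8b and Cox8c did not pass.

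Complex II, succinate dehydrogenase, passes electrons from succinate to ubiquinone, complex III moves them on to cytochrome c, and complex IV hands them to oxygen. Complexes III and IV pump protons, and ATP synthase uses the returning protons to make ATP. Activation of a resting T cell is known to expand its mitochondria, and the nuclear receptor ERR-alpha, encoded by Esrra, together with the factors NRF-1 and GABP, is known to drive many genes of oxidative phosphorylation.

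The libraries were poly(A)-selected and were made from CD4+ T cells that C57BL/6J mice yielded from spleen and from lymph nodes, inguinal and axillary. The KO-labelled libraries carry the genotype label Nur77KO, which names the nuclear receptor encoded by Nr4a1, and the others are labelled WT. In each genotype, cells were stimulated with antibodies to CD3 and CD28 for 12 h in the presence of XCT790, an inverse agonist of ERR-alpha, or of CompA, known here by its code alone, both at 10 µg/ml, or were stimulated without an inhibitor, or were labelled control and are called unstimulated here. This gave 8 groups of 4 libraries. The vehicle, the age and sex of the mice and the allele are not given in the sources used here, and no label ties the 4 libraries of a group to different animals or cultures. The p-values are thus about library-to-library spread, part of which could be technical. In the titles, all WT library numbers come before all KO-labelled ones. A difference between genotypes therefore cannot be told apart from a difference by library order.

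Gene counts per library ran between 16020288 and 23687940. The count of Nr4a1 was not lower in KO-labelled libraries, with 332 ± 128 CPM (read counts scaled to a common library size) in KO-labelled stimulated cells and 166 ± 32.7 CPM in WT stimulated cells (SD, n = 4 each), so the genotype is given as labelled and was not checked by this gene. T cell markers summed to between 3170 and 4670 CPM in every group. A list of 15 myeloid and dendritic markers summed to 35.4 ± 6.60 CPM in KO-labelled stimulated cells, 19.0 ± 3.28 CPM in WT cells with XCT790 and 812 ± 387 CPM in WT stimulated cells, against 1470 ± 511 CPM in KO-labelled unstimulated cells and 2840 ± 563 CPM in WT unstimulated cells. Over 93 genes that were under 2% of their unstimulated level in each of the other stimulated groups, the 4 WT stimulated libraries held 0.161, 0.465, 0.220 and 0.217 of the WT unstimulated level. Counts of test calls and medians over all members that use the WT stimulated libraries are therefore also given with that share of the WT unstimulated profile subtracted, while levels, sums, values per complex and most fold changes of single members are given without it. The share was measured on those 93 genes alone. That it holds for the whole unstimulated profile, T cell transcripts included, was assumed and not tested. A subtraction larger than a count left no count. Among WT unstimulated libraries, replicate 1 held the highest level of 45 of the 45 tested members, and WT stimulated replicate 1 that of 33. WT unstimulated replicate 1 also had 91.3 reads with more than 1 place per 100 gene counts, against 68.9 to 82.7 in the rest of its group. Its scaling factor was 0.927, against 1.03 to 1.11. In KO-labelled cells, replicate 3 held the lowest level of 40 members with stimulation, 41 with XCT790 and 43 with CompA. It had the fewest reads with more than 1 place of each of these groups, at 58.6, 64.5 and 60.2 per 100 gene counts. KO-labelled unstimulated replicate 4, highest in 36 members, had 60.4, in a group that ran from 59.1 to 71.2. The part of this measure in the member levels was not tested. KO-labelled replicate 2 had up to 739 CPM of B cell markers. Fewer cells of a type and less RNA per cell cannot be told apart in such libraries.

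Summed over the genes of a complex, transcript levels were higher in stimulated than in unstimulated cells of both genotypes, and the KO-labelled unstimulated cells held the lowest levels of all 8 groups. Levels are CPM scaled by TMM, a factor per library that evens out composition, and are given as mean ± SD of 4 libraries. The 15 ATP synthase genes summed to 9510 ± 1230 CPM in KO-labelled stimulated cells and 3130 ± 221 CPM in KO-labelled unstimulated cells, a ratio of 3.04. In WT the same genes summed to 8170 ± 780 CPM in stimulated cells and 4460 ± 1080 CPM in unstimulated cells, a ratio of 1.83. Complex III stood at 2750 ± 498 CPM in KO-labelled stimulated cells and 962 ± 67.3 CPM in KO-labelled unstimulated cells, against 2370 ± 288 CPM in WT stimulated cells and 1450 ± 422 CPM in WT unstimulated cells. For complex IV the sums were 2730 ± 535 CPM and 1310 ± 113 CPM in KO-labelled stimulated and unstimulated cells, against 2510 ± 306 CPM and 2220 ± 643 CPM in WT stimulated and unstimulated cells, and the WT difference was smaller than the SDs. Complex II stood at 1110 ± 84.6 CPM and 612 ± 27.2 CPM in KO-labelled stimulated and unstimulated cells and 1020 ± 78.3 CPM and 782 ± 124 CPM in WT stimulated and unstimulated cells. In the inhibitor groups the 47 subunit genes together summed to 13600 ± 1820 CPM with XCT790 and 13700 ± 2090 CPM with CompA in KO-labelled cells, and to 15500 ± 1050 CPM with XCT790 and 16000 ± 447 CPM with CompA in WT cells, so that the spread within the KO-labelled groups reached past the difference between the inhibitors.

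**Figure D1:**
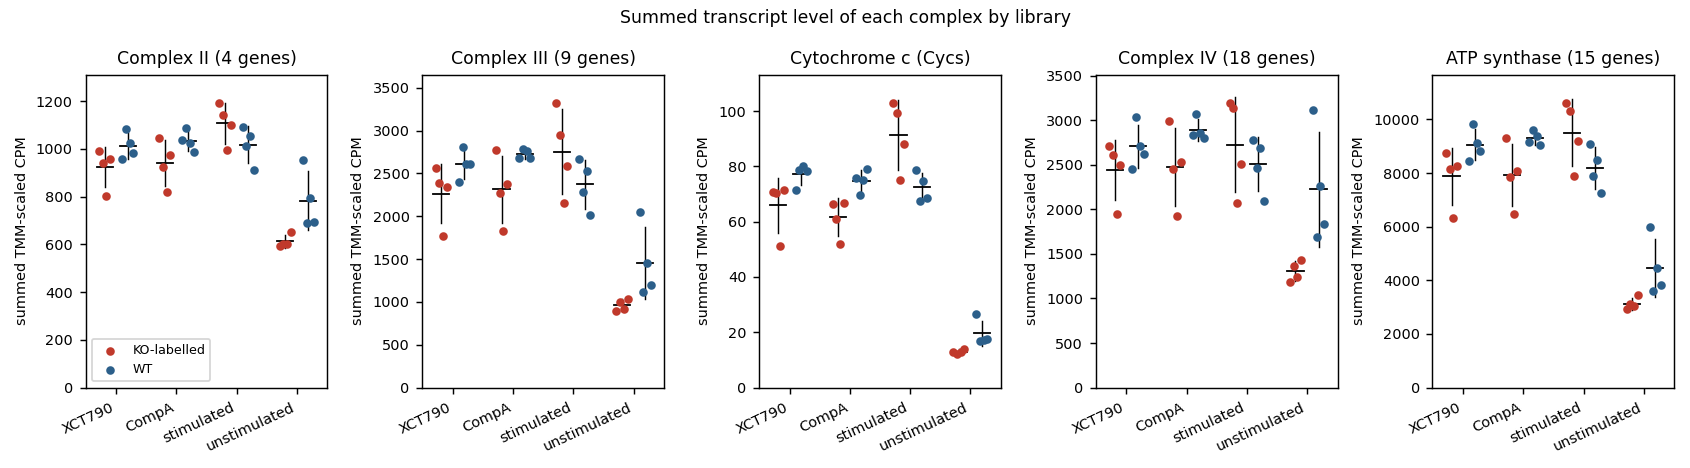
Summed TMM-scaled CPM of the genes of complex II, complex III, cytochrome c, complex IV and ATP synthase in each library, with KO-labelled libraries in red and WT in blue, group means as horizontal lines and SD as vertical lines (n = 4). Within each genotype the unstimulated group mean lies lowest in every panel, and 1 WT unstimulated library stands above the other 3 in every panel.

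Per kilobase of the main annotated transcript, the catalytic beta subunit of ATP synthase, Atp5b, had the highest level of the members in stimulated cells, at 1730 CPM per kb in KO-labelled stimulated cells and 1460 CPM per kb in WT stimulated cells. In unstimulated cells it stood at 457 CPM per kb in KO-labelled and 632 CPM per kb in WT libraries, where Cox4i1 had 510 and 871 CPM per kb. The c subunit of the ATP synthase rotor is encoded by 3 genes that give the same mature protein. On the same per-kilobase scale, Atp5g3 stood at 1070 CPM per kb in KO-labelled stimulated cells, against 262 CPM per kb for Atp5g1 and 229 CPM per kb for Atp5g2. In KO-labelled unstimulated cells the levels were 261 CPM per kb for Atp5g3, 43.4 CPM per kb for Atp5g1 and 120 CPM per kb for Atp5g2. The mean of Atp5g1 was above that of Atp5g2 in KO-labelled stimulated cells alone of the 8 groups, by less than the Atp5g1 SD of 52.0 CPM per kb, and WT stimulated cells had 210 CPM per kb for Atp5g1 and 222 CPM per kb for Atp5g2. Cox4i1, the common form of the subunit that starts complex IV assembly with Cox5a, stood at 863 CPM per kb in KO-labelled stimulated cells and 816 CPM per kb in WT stimulated cells. Cycs was the least abundant of the broadly used members per kilobase, at 29.2 CPM per kb in KO-labelled stimulated cells and 23.2 CPM per kb in WT stimulated cells. The forms known from muscle, lung or testis stayed near the floor of detection. Cox4i2, Cox6a2, Cox6b2 and Cox7a1 had group means under 1 CPM in all stimulated groups, and Cox7b2, Cox8b and Cox8c had no count in any of the 32 libraries.

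Stimulation of KO-labelled cells raised 39 of the 45 tested members and lowered 3, and 3 did not pass the test (edgeR quasi-likelihood F test in 1 fit of all 12332 tested genes, Benjamini-Hochberg adjusted p under 0.05). Over all tested genes, 39.3% rose and 42.4% fell in this comparison. The median log2 fold change of the members was 1.39, against -0.07 for all tested genes. All 9 tested genes of complex III and all 15 of ATP synthase rose, with medians of 1.67 and 1.45, and 3 of 4 genes of complex II and 10 of 14 of complex IV rose, with medians of 1.22 and 1.14. In 38 members every KO-labelled stimulated library lay above every KO-labelled unstimulated one, where 34.8% of all tested genes did so, and in 2 every one lay below, where 37.9% did.

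Stimulation of WT cells raised 32 members and lowered 4, where 34.5% of all tested genes rose and 38.8% fell. The members' median log2 fold change was 0.69, against -0.11 for all tested genes. The calls numbered 8 of 9 in complex III, with a median of 0.94, and 11 of 15 in ATP synthase, with a median of 0.72. In complex II 3 of 4 rose, with a median of 0.60, and in complex IV 8 of 14 rose and 3 fell, with a median of 0.43. Every WT stimulated library lay above every WT unstimulated one in 23 members, where 30.3% of all tested genes did so, and below in 3, where 30.5% did. With the unstimulated share subtracted from the WT stimulated libraries the members' median was 0.90, 33 members rose and 6 fell, where 36.8% of all genes tested rose and 43.7% fell, and the 36 calls of either direction were all kept. Without WT unstimulated replicate 1, 36 members rose, where 37.5% of all genes tested rose.

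Cytochrome c, the soluble carrier between complexes III and IV, had the largest fold change of the members in both genotypes. Cycs stood at 103, 99.2, 75.0 and 88.2 CPM in KO-labelled stimulated libraries and at 13.0, 12.1, 12.9 and 14.0 CPM in KO-labelled unstimulated libraries. The WT stimulated libraries had 78.6, 67.4, 74.8 and 68.6 CPM of Cycs, and the WT unstimulated libraries 26.4, 17, 17.4 and 17.4 CPM. Stimulated and unstimulated libraries did not overlap in either genotype. The log2 fold change was 2.81 ± 0.13 (SE) in KO-labelled cells and 1.89 ± 0.13 in WT cells, with edgeR adjusted p of 2.4e-17 and 1.7e-13, and the WT value was 2.27 with the unstimulated share subtracted.

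In complex III, the redox subunit cytochrome c1 and a small subunit at the quinone side led. Cyc1 had 491, 419, 321 and 387 CPM in KO-labelled stimulated libraries and 76.9, 88.3, 73.9 and 85.9 CPM in KO-labelled unstimulated libraries. In WT libraries Cyc1 had 363, 296, 349 and 279 CPM with stimulation and 165, 88.3, 109 and 100 CPM without. The groups did not overlap within a genotype, and the log2 fold change was 2.31 ± 0.16 in KO-labelled cells and 1.48 ± 0.15 in WT cells. Uqcrq, the small subunit, had log2 fold changes of 2.52 ± 0.20 in KO-labelled cells and 1.46 ± 0.20 in WT cells. The Rieske iron-sulfur subunit, Uqcrfs1, stood at 1.67 ± 0.17 in KO-labelled cells and 0.70 ± 0.16 in WT cells, and the core subunits Uqcrc1 and Uqcrc2 at 1.38 and 1.30 in KO-labelled cells and 0.79 and 0.68 in WT cells. The hinge protein Uqcrh, which helps cytochrome c1 and cytochrome c meet, had the smallest fold change of the complex: its log2 fold change was 0.46 ± 0.19 in KO-labelled cells (edgeR adjusted p 0.031) and -0.35 ± 0.19 in WT cells (adjusted p 0.10, not called).

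In complex II the catalytic flavoprotein did not move with its partners. Sdha had 339, 335, 389 and 400 CPM in KO-labelled stimulated libraries and 347, 333, 345 and 362 CPM in KO-labelled unstimulated libraries, and these overlap. In WT it had 390, 395, 393 and 371 CPM with stimulation and 442, 381, 422 and 377 CPM without, which overlap too. Its log2 fold change was 0.08 ± 0.07 in KO-labelled cells and -0.07 ± 0.07 in WT cells, and neither passed the test. The membrane anchor Sdhd, by contrast, had 344, 326, 239 and 287 CPM in KO-labelled stimulated libraries and 64.1, 76.3, 75.8 and 87.9 CPM in KO-labelled unstimulated libraries. WT libraries had 275, 232, 244 and 200 CPM of Sdhd with stimulation and 158, 93.2, 112 and 94.6 CPM without, so groups did not overlap in either genotype. Sdhd rose by 1.98 ± 0.15 on the log2 scale in KO-labelled cells and by 1.05 ± 0.15 in WT cells. The iron-sulfur subunit Sdhb rose by 1.41 in KO-labelled cells and 0.81 in WT cells, and the other anchor, Sdhc, by 1.02 and 0.39.

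In ATP synthase, Atp5b had 3520, 3630, 2860 and 3260 CPM in KO-labelled stimulated libraries and 835, 859, 857 and 953 CPM in KO-labelled unstimulated libraries. Its WT levels were 3090, 2620, 2870 and 2570 CPM with stimulation and 1590, 995, 1180 and 1060 CPM without. Every stimulated library lay above every unstimulated one, and the log2 fold change was 1.92 ± 0.12 in KO-labelled cells and 1.21 ± 0.12 in WT cells, or 1.51 in WT with the unstimulated share subtracted. Among the 3 genes for the c subunit the fold changes differed in size. Atp5g1 rose by 2.59 ± 0.16 in KO-labelled cells and 1.79 ± 0.16 in WT cells, Atp5g3 by 2.04 ± 0.16 and 1.21 ± 0.16, and Atp5g2 by 0.93 ± 0.15 in KO-labelled cells, while its 0.18 ± 0.15 in WT cells did not pass the test. Of the rest of the catalytic head, Atp5a1, Atp5c1, Atp5d and Atp5e, and of the stalk, Atp5o, Atp5f1, Atp5h and Atp5j, all rose in KO-labelled cells, from 0.78 for Atp5h to 1.56 for Atp5d. The small membrane subunits Atp5j2, Atp5k and Atp5l rose there by 1.06, 1.85 and 1.07. Besides Atp5g2, the ATP synthase genes that did not pass the test in WT cells were Atp5e, Atp5h and Atp5l, with log2 fold changes of 0.33, 0.07 and 0.03.

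Complex IV was the most mixed. Cox5a, a matrix-side subunit, rose by 1.93 ± 0.12 in KO-labelled cells and by 1.07 ± 0.12 in WT cells, and Cox5b, Cox7a2, Cox7b and Cox7c rose by 1.57 to 1.87 in KO-labelled cells and by 0.69 to 1.04 in WT cells. Cox6a1, Cox6b1, Cox6c and Cox8a had log2 fold changes of 1.00 to 1.37 in KO-labelled cells and of 0.27 to 0.48 in WT cells, and of these Cox6a1 did not pass the test in WT. Cox4i1 had 804, 733, 474 and 563 CPM in KO-labelled stimulated libraries and 337, 409, 353 and 420 CPM in KO-labelled unstimulated libraries, which do not overlap. In WT it had 679, 588, 682 and 482 CPM with stimulation and 926, 480, 669 and 519 CPM without, which overlap. Its log2 fold change was 0.76 ± 0.18 in KO-labelled cells and -0.09 ± 0.18 in WT cells, the second not called.

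Cox7a2l, a relative of Cox7a2, went the other way. It had 81.0, 91.2, 57.9 and 63.4 CPM in KO-labelled stimulated libraries and 189, 204, 188 and 208 CPM in KO-labelled unstimulated libraries. The WT stimulated libraries had 202, 199, 209 and 137 CPM, and the WT unstimulated libraries 680, 365, 521 and 394 CPM. Its libraries did not overlap within a genotype, and it fell by 1.43 ± 0.17 on the log2 scale in KO-labelled cells and by 1.39 ± 0.17 in WT cells. With the unstimulated share subtracted the WT log2 fold change was -2.68, but Cox7a2l then stood at 76.7 ± 67.2 CPM in WT stimulated libraries. In replicate 2 the share to subtract exceeded its level and left no count, so the size of this value is not reliable. Myeloid markers also stood far lower in stimulated than in unstimulated cells, with all 15 of the list called lower in each genotype, and their part in the level of Cox7a2l was not tested. Atp5s rose and Atp5sl fell on stimulation in both genotypes, and these 2 are not subunits. The other members called lower were Cox6a2 in both genotypes and Cox6b2 in WT, each with group means under 1 CPM. The WT calls of Atp5sl, Cox6a2 and Cox6b2 were lost without WT unstimulated replicate 1.

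**Figure D2:**
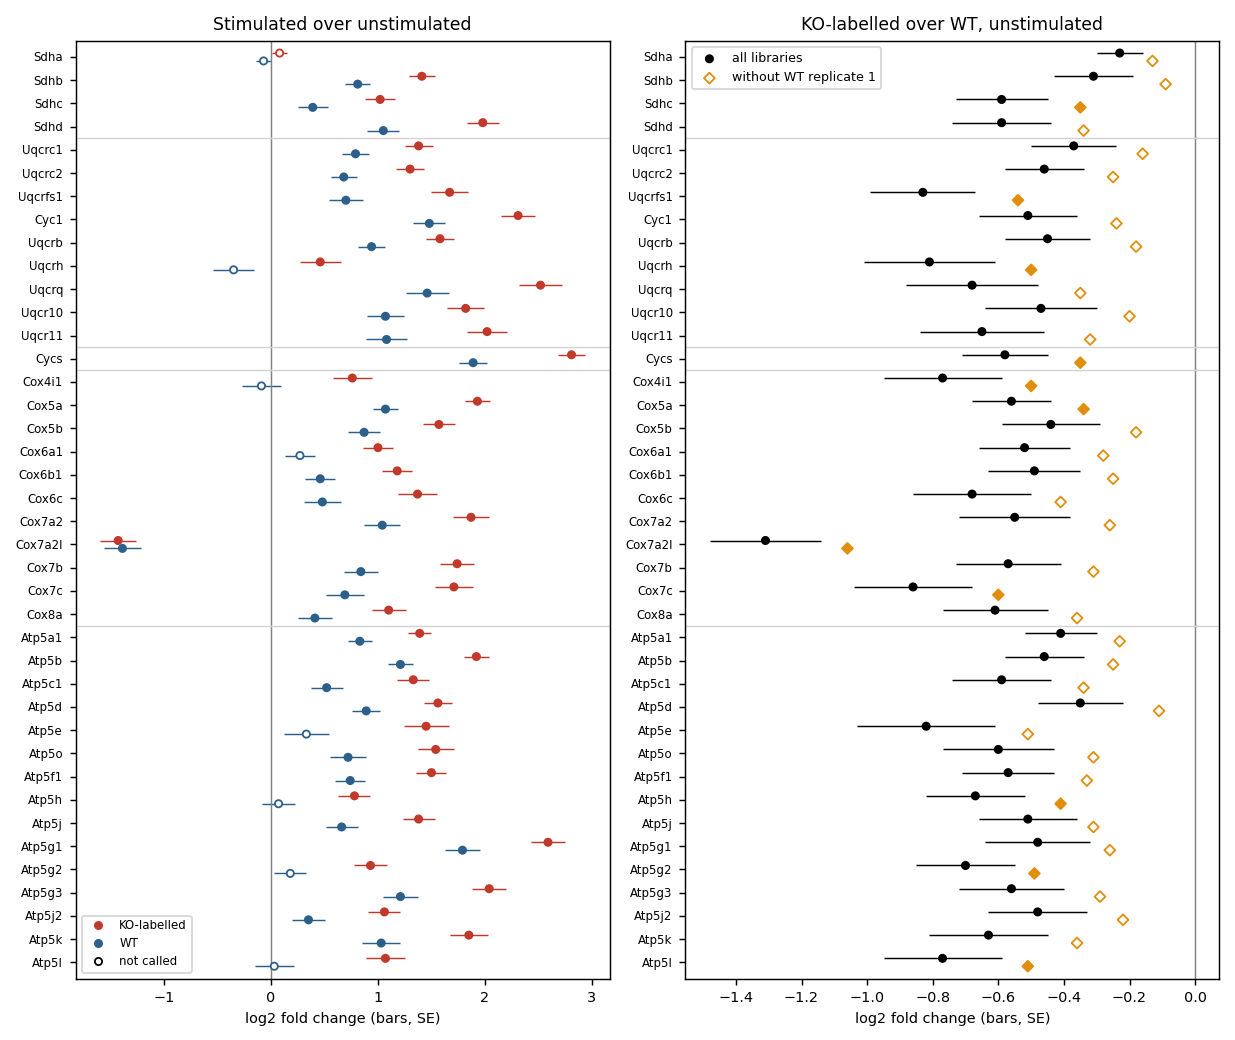
Log2 fold changes of the subunit genes above the floor of detection, without Atp5s and Atp5sl, grouped by complex with grey lines between complexes. The left panel gives stimulated over unstimulated cells for KO-labelled (red) and WT (blue), with SE bars, and the right panel gives KO-labelled over WT unstimulated cells with all libraries (black, SE bars) and without WT replicate 1 (orange diamonds). Open symbols have an adjusted p of 0.05 or more. Red points lie right of the blue ones except for Cox7a2l, at -1.43 in KO-labelled and -1.39 in WT cells, and every point in the right panel is below 0.

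The promoters of Sdhd, Atp5g3 and Cycs are shown because the first 2 were the only members found to hold the letters of an ERR element and Cycs had the largest fold change. Promoter sequence from RefSeq (GRCm38.p6), from 250 bases before to 50 after the start site, was found for 36 of the 47 subunit members and searched on both strands. NRF-1 letters, GCGCA followed by any base and GCGC, were in 10 of the 36 (27.8%), where 11.7% of tested genes with a promoter entry hold them. The ERR letters TCAAGGTCA were in 2 (5.56%), Sdhd and Atp5g3, against 0.305% of tested genes. GABP letters, CCGGAAGTG, were in Uqcrh alone (2.78%, against 5.08%), and YY1 letters, AAGATGGC, were in Atp5f1, Atp5j and Atp5j2 (8.33%, against 5.4%). The 200 bases before each start site are printed 5′ to 3′ on the gene's strand, which is the minus strand for all 3, with a match in capitals. The capitals mark an NRF-1 match that starts 79 bases before the Sdhd start site (chr9:50603850-50604049) and an ERR match on the opposite strand that starts 52 bases before the Atp5g3 start site (chr2:73911327-73911526), and the Cycs stretch (chr6:50566570-50566769) holds none of these letters.
Sdhd: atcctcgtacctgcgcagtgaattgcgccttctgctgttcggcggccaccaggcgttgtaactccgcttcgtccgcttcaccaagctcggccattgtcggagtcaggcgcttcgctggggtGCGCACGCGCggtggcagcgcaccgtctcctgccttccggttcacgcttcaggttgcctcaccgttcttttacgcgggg
Atp5g3: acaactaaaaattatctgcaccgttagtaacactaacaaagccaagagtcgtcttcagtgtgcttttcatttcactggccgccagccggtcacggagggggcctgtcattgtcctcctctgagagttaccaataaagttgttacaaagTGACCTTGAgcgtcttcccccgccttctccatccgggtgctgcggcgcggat
Cycs: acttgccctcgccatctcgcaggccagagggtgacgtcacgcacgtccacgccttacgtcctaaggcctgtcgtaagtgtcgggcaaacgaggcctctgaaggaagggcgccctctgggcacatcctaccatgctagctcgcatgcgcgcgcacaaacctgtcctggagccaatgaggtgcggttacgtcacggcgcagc
Sdhd also has the ERR letters 37 bases after its start site and Atp5g3 the NRF-1 letters 13 bases after, both outside the printed stretch. A match is a description of letters and not a measured binding site. Only exact letters were searched, so the lack of a match does not show that a site is absent.

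The rise on stimulation was larger in KO-labelled than in WT cells. The test of that difference, the interaction of stimulation and genotype in the same edgeR fit, called 39 members higher and 0 lower, where 17.2% of all tested genes were called higher and 16.5% lower. At an unadjusted p under 0.05, and by DESeq2 and limma-voom, 0 members were lower as well. The members' median was 0.75 on the log2 scale, against -0.04 for all tested genes, and all 9 tested genes of complex III, all 15 of ATP synthase, 3 of 4 of complex II and 10 of 14 of complex IV were called. By its form this interaction is the KO-labelled over WT difference in stimulated cells less that in unstimulated cells. Those differences, given below with members' medians of 0.22 and -0.57, come from the same libraries, so the results are not independent. Of the members above 10 CPM in some group, the interaction values ran between -0.04 for Cox7a2l, which with Atp5sl had the only values under 0, and 1.12 ± 0.30 for Atp5e, the epsilon subunit of the catalytic head. Sdha, at 0.14 ± 0.09, was not called.

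The size of this difference moved with the WT libraries that stand apart. Without WT unstimulated replicate 1, 28 members were called higher and the members' median was 0.52, where 7.81% of all genes tested were called higher. With the unstimulated share subtracted from the WT stimulated libraries, 6 members were called, Uqcrfs1, Uqcrh, Cox4i1, Cox5a, Atp5e and Atp5l, with a members' median of 0.54, where 4.92% of all genes tested were called higher, and 31 members were higher at an unadjusted edgeR p under 0.05. Cycs, at 0.92 ± 0.18 in the full fit (edgeR adjusted p 0.00045), stood at 0.70 without that library (adjusted p 0.0008) and at 0.52 with the share subtracted (adjusted p 0.0732). Cox5a, at 0.86 ± 0.17 (adjusted p 0.00059), stood at 0.65 without the library and at 0.55 with the share subtracted (adjusted p 0.0486).

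In unstimulated cells, KO-labelled libraries were lower than WT libraries in 41 members and higher in 0, where 23.6% of all tested genes fell and 12.5% rose. By DESeq2 and limma-voom 39 members each were lower and 0 higher, and 0 were higher at an unadjusted p under 0.05. The members' median log2 fold change was -0.57, against -0.08 for all tested genes, and the fold changes of members above 10 CPM in some group ran between -1.31 and -0.12. All 4 genes of complex II, all 9 of complex III, all 15 of ATP synthase and 12 of 14 of complex IV were called, and the tested members that were not were Cox6a2, Cox6b2, Atp5s and Atp5sl. In 34 members every KO-labelled unstimulated library lay below every WT one, where 19.8% of all tested genes did so.

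The size of that difference depended on 1 library, and its calls also on the fit. With only the groups compared in the fit, 15 of the 41 calls were kept, with a members' median of -0.49, where 2294 of 11971 genes were called, 1191 of them higher. Without WT unstimulated replicate 1, 11 members were called lower, with a members' median of -0.32, where 8.51% of all genes tested fell. They were Sdhc, Uqcrfs1, Uqcrh, Cycs, Cox4i1, Cox5a, Cox7a2l, Cox7c, Atp5g2, Atp5h and Atp5l. Uqcrfs1 had 106, 117, 114 and 115 CPM in KO-labelled unstimulated libraries, against 290, 144, 212 and 154 CPM in WT ones, which do not overlap. Its log2 fold change was -0.83 ± 0.16 with all libraries (edgeR adjusted p 0.00051) and -0.54 without WT replicate 1 (adjusted p 0.0067). Cox7c, a small membrane subunit of complex IV, had 26.2, 32.2, 29.4 and 36.3 CPM in KO-labelled libraries, against 80.4, 41.4, 56.5 and 48.0 CPM in WT ones, again without overlap, and stood at -0.86 ± 0.18 with all libraries and -0.60 without the replicate. Atp5b, at -0.46 ± 0.12 with all libraries (adjusted p 0.0043), stood at -0.25 without it (adjusted p 0.0673).

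Cox7a2l, already described for its fall on stimulation, had the largest genotype difference of the members above 10 CPM. Its log2 fold change of KO-labelled over WT unstimulated cells was -1.31 ± 0.17 (edgeR adjusted p 3.8e-06), and -1.06 without WT replicate 1 (adjusted p 2.8e-05), and no KO-labelled library reached the lowest WT library. Myeloid markers were also lower there, with 8 of 15 called lower, and their sum was 1470 ± 511 CPM in KO-labelled and 2840 ± 563 CPM in WT unstimulated cells. Their part in the genotype difference of the members was not tested. With library totals as the only scaling, 27 members were called lower, with a median of -0.34 where that of all tested genes was 0.13, and 9.59% of all tested genes fell.

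In stimulated cells few members were called between the genotypes. Of the 45 members, 1 was called higher in KO-labelled than in WT stimulated cells, where 7.31% of all tested genes rose, and 1 was lower, where 17.9% fell. DESeq2 called 6 higher, where 1627 of 13354 genes were called higher. With library totals edgeR called 6, where 876 of 12332 genes were called higher. In the main fit 9 members were higher at an unadjusted edgeR p under 0.05. The members' median log2 fold change was 0.22. The higher one was Cycs, at 0.33 ± 0.12 (edgeR adjusted p 0.042), and with the unstimulated share subtracted it stood at -0.07. That call also lapsed in 6 fits that left out 1 or more libraries, among them KO-labelled stimulated replicate 1 (adjusted p 0.0712) and WT stimulated replicate 2 (adjusted p 0.126). Without KO-labelled stimulated replicate 3, 9 members were called higher, and the share of all genes in that fit is not given here. The lower member was Cox7a2l, at -1.35 ± 0.17 (adjusted p 4.4e-07), which stood at -0.09 with the share subtracted (adjusted p 0.962). That subtraction left no count of Cox7a2l in WT stimulated replicate 2. With that subtraction the members' median was -0.02 and 0 members were called in either direction, where 4.03% of all genes tested rose and 1.93% fell, and at an unadjusted edgeR p under 0.05 there were 0 as well.

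**Figure D3:**
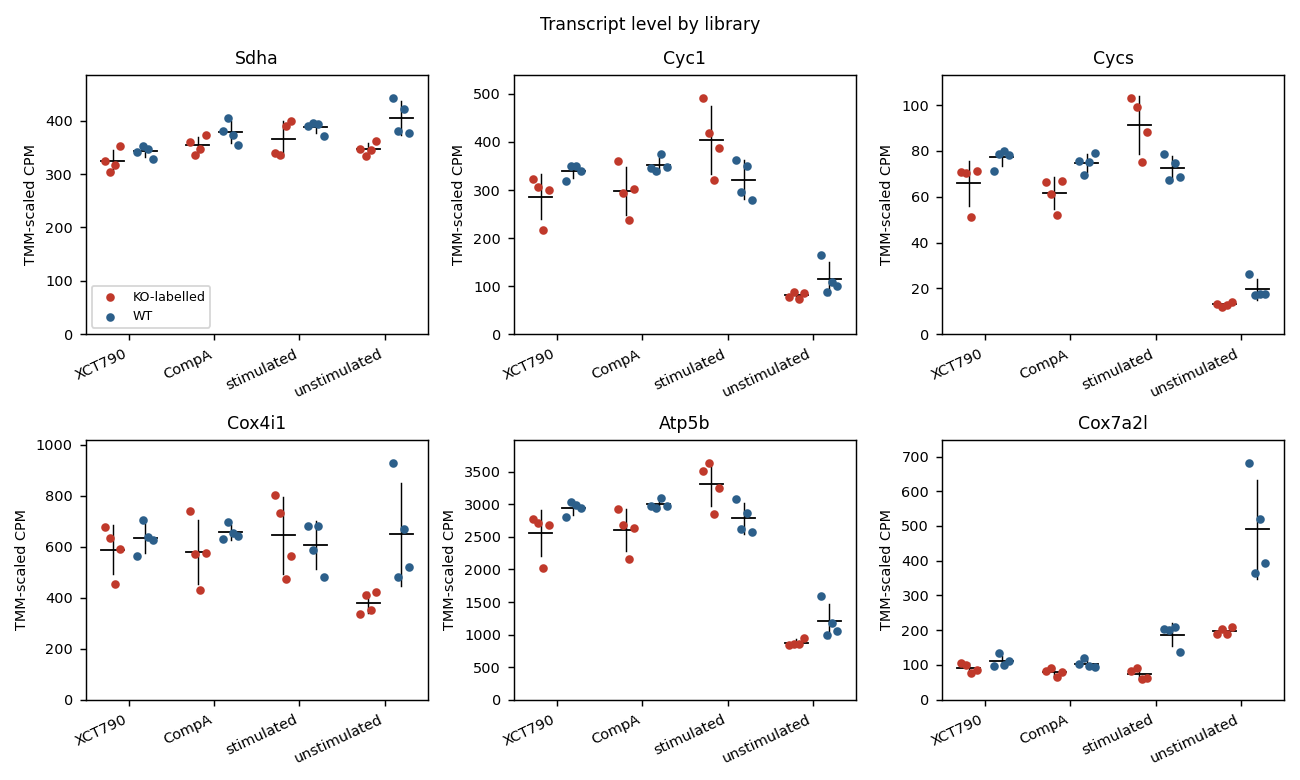
TMM-scaled CPM of Sdha, Cyc1, Cycs, Cox4i1, Atp5b and Cox7a2l in each library, KO-labelled in red left of WT in blue, for cells stimulated with XCT790, with CompA, without an inhibitor, and unstimulated cells, with group means and SD (n = 4). Cyc1, Cycs and Atp5b are several-fold lower in unstimulated cells, Sdha stays between 303 and 442 CPM in all libraries, and Cox7a2l is highest in WT unstimulated cells.

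In the presence of an inhibitor 0 members passed the test between genotypes. In XCT790-treated cells 0 members were called between KO-labelled and WT libraries, where 7.4% of all tested genes rose and 2.11% fell, and in CompA-treated cells 0 were called, where 5.82% rose and 1.88% fell. DESeq2 and limma-voom also called 0 in both comparisons, and at an unadjusted p under 0.05 there were 1 higher and 1 lower with XCT790 and 0 higher and 6 lower with CompA. All 41 members above 10 CPM in some group had a log2 fold change under 0 in both, between -0.27 and -0.04 with XCT790 and between -0.38 and -0.02 with CompA, with SEs of 0.07 to 0.21. These signs are not separate results, since KO-labelled replicate 3 held the lowest level of 41 members with XCT790 and 43 with CompA. None of the 15 myeloid markers was called lower in KO-labelled cells there. Their sums were 34.7 ± 12 CPM in KO-labelled and 19.0 ± 3.28 CPM in WT cells with XCT790. With CompA they were 43.2 ± 12 CPM in KO-labelled and 22.0 ± 2.29 CPM in WT cells.

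XCT790 in KO-labelled stimulated cells lowered 4 members, Sdhd, Cyc1, Cycs and Atp5b, where 5.07% of all tested genes fell, and 1 member, Cox6b2, was called higher, where 6.2% rose. The members' median log2 fold change against KO-labelled stimulated cells was -0.22, and 38 of the 41 members above 10 CPM in some group had a value under 0. Sdhd had 240, 225, 163 and 215 CPM in KO-labelled cells with XCT790, against 344, 326, 239 and 287 CPM in KO-labelled stimulated cells, where 1 library with XCT790 lies just above the lowest stimulated one. The log2 fold change was -0.50 ± 0.15 (edgeR adjusted p 0.026). Cycs had 70.6, 70.4, 51.0 and 71.3 CPM with XCT790, all below the 75.0 to 103 CPM of KO-labelled stimulated libraries, and a log2 fold change of -0.47 ± 0.12 (adjusted p 0.012). Cyc1 stood at -0.50 ± 0.15 and Atp5b at -0.38 ± 0.12. Cox6b2, the form known from testis, was at 0.661 ± 0.357 CPM with XCT790 and 0.198 ± 0.0958 CPM with stimulation alone.

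CompA in KO-labelled stimulated cells lowered 5 members, Sdhd, Cyc1, Cycs, Atp5b and Atp5g1, where 9.11% of all tested genes fell, and again 1, Cox6b2, was called higher, where 10.2% rose. The members' median was -0.21. Cycs had 66.5, 61.0, 52.1 and 66.8 CPM in KO-labelled cells with CompA, without overlap with the KO-labelled stimulated libraries, and a log2 fold change of -0.57 ± 0.12 (edgeR adjusted p 0.0016). Sdhd had 239, 206, 161 and 190 CPM with CompA, which reached the lowest of the stimulated libraries at 239 CPM, and stood at -0.59 ± 0.15 (adjusted p 0.0058). Atp5g1 stood at -0.45 ± 0.15 and Cyc1 at -0.44 ± 0.15. Both inhibitors were compared with the same KO-labelled stimulated libraries, so the likeness of the lists is not independent.

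The number of calls in KO-labelled cells changed with the libraries kept and with the model. The KO-labelled libraries with the same place in the run of library numbers deviated together, and with that run as a block 9 members were lower with XCT790, where 10.4% of all tested genes fell, and 10 with CompA, where 14.2% fell, including all those named above. Within each KO-labelled run, the sum of the 47 subunit genes was lower with either inhibitor than with stimulation alone, and so was Cycs. Leaving a library out of an inhibitor group alone breaks that pairing, and the overlap counts ignore it. Without replicate 3 of the XCT790 group 0 members were lower with XCT790 (5 at an unadjusted edgeR p under 0.05), and 3 of the 6 calls with CompA were kept without replicate 3 of that group. Without replicate 2 of every KO-labelled group, Cycs was the 1 call kept with XCT790, and Cycs and Sdhd were kept with CompA. DESeq2 called 9 members lower with each inhibitor. Over all genes it called 1873 of 11672 with XCT790, 763 of them higher, and 2788 of 12345 with CompA, 1225 of them higher. With only the groups compared in the fit, 0 members were called with XCT790, where 240 of 11057 genes were called, and with CompA 2 were lower and 0 higher, where 860 of 11011 genes were called. All 4 KO-labelled libraries with XCT790 lay below all 4 stimulated ones in 2 members, where 5.18% of all tested genes did, and above in 1, where 7.32% did. With CompA the counts were 1 below, where 7.02% of all tested genes were, and 1 above, where 8.73% were.

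In WT stimulated cells few members were called with XCT790, and more rose than fell with CompA. XCT790 raised 1 member, where 8.4% of all tested genes rose, and lowered 3, where 20.2% fell. The member raised was Cox7b, at 0.44 ± 0.16 (edgeR adjusted p 0.035), and those lowered were Sdha, at -0.18 ± 0.07 (adjusted p 0.048), Cox7a2l, at -0.76 ± 0.17, and Cox4i2, which was under 1 CPM. CompA raised 7, Uqcrb, Cox5a, Cox6a1, Cox7b, Atp5d, Atp5j and Atp5s, where 11.6% of all tested genes rose, and lowered Cox7a2l alone, at -0.85 ± 0.17, where 21.3% fell. Cox5a had 362, 364, 359 and 345 CPM in WT cells with CompA, all above the 296, 254, 273 and 243 CPM of WT stimulated libraries, with a log2 fold change of 0.42 ± 0.12 (adjusted p 0.0063). The members' median was 0.15 with XCT790 and 0.17 with CompA, and with the unstimulated share subtracted from the WT stimulated libraries it turned to -0.05 and -0.01. All WT libraries with CompA lay above all WT stimulated ones in 17 members, where 16.1% of all tested genes did, and below in 1, where 20.2% did.

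Myeloid markers fell in the same 2 WT comparisons, with 14 of 15 called lower with XCT790 and 15 of 15 with CompA. With the unstimulated share subtracted from the WT stimulated libraries, 0 members were called with XCT790 in WT (0 higher and 2 lower at an unadjusted edgeR p under 0.05), where 3.78% of all genes tested rose and 3.03% fell, and with CompA 2 were higher and 2 lower, where 11% rose and 10.7% fell. Of the calls named above, that of Atp5s, which is not a subunit, was the 1 kept. Cox7a2l then stood at 0.51 with XCT790 (edgeR adjusted p 0.659) and at 0.41 with CompA (adjusted p 0.641), neither called. The subtraction left no count of Cox7a2l in WT stimulated replicate 2, so the change of sign gives no direction.

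The test of whether an inhibitor acted differently in KO-labelled and WT cells called 4 members for each inhibitor, and both tests use the same stimulated libraries. Cycs, Cox5a and Atp5b were called lower, where 7.23% of all tested genes were lower with XCT790 and 5.99% with CompA, and Cox7a2l was called higher, where 17.5% were higher with XCT790 and 15.6% with CompA. The difference for Cycs was -0.56 ± 0.17 with XCT790 and -0.62 ± 0.17 with CompA on the log2 scale. Those for Cox5a were -0.48 ± 0.17 and -0.52 ± 0.17, and for Atp5b -0.46 ± 0.17 with each. The members' median difference was -0.38 with XCT790 and -0.46 with CompA, or -0.18 and -0.23 with the unstimulated share subtracted. With the unstimulated share subtracted from WT stimulated libraries 0 members were called for either inhibitor, also at an unadjusted edgeR p under 0.05, as were 0% of all genes tested at the adjusted p, with Cycs at -0.16 for XCT790 and -0.21 for CompA. With the run as a block 18 members were lower for XCT790, where 14% of all tested genes were, and 23 for CompA, where 13.5% were, but WT libraries did not all deviate together by run.

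**Figure D4:**
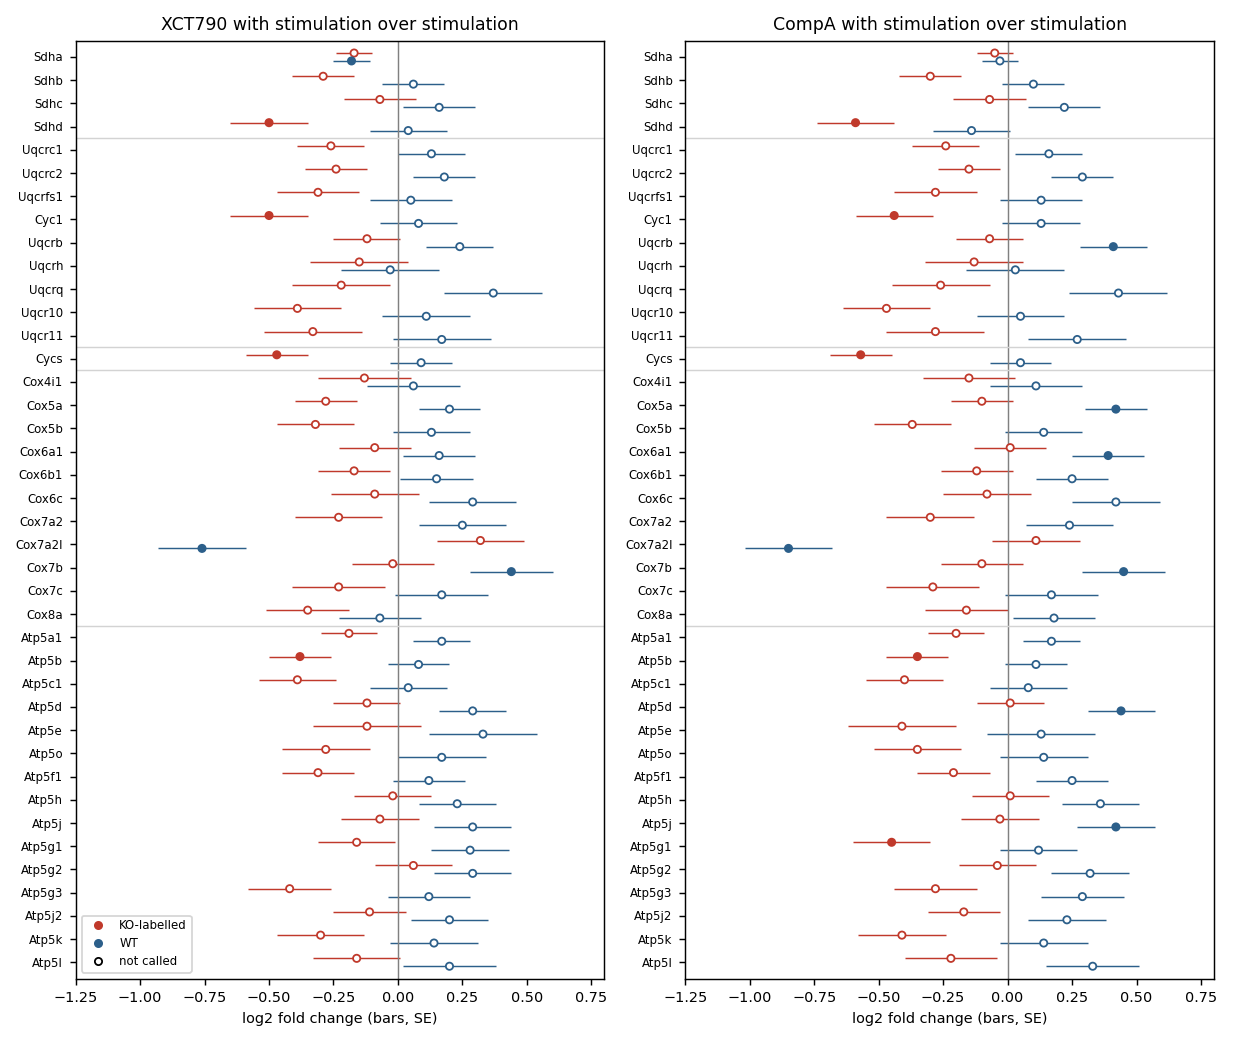
Log2 fold changes, with SE bars, of the subunit genes above the floor of detection in stimulated cells with XCT790 (left) or CompA (right) over stimulated cells without an inhibitor, KO-labelled in red above WT in blue, with open symbols where the adjusted p was 0.05 or more. Most red points lie below 0, with medians over the tested members of -0.22 and -0.21, and most blue points lie above 0, with medians of 0.15 and 0.17, while Cox7a2l in WT lies at -0.76 and -0.85.

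Set directly against each other at the same dose and time, XCT790 and CompA differed in 0 members in KO-labelled cells, where 1.97% of all tested genes were higher and 1.27% lower, and in 1 member in WT cells, Atp5s, lower with XCT790, where 4.33% were higher and 5.08% lower. At an unadjusted p under 0.05 there were 1 higher and 1 lower in KO-labelled cells, and DESeq2 and limma-voom called 0 there. The log2 differences of the 41 members above 10 CPM in some group ran between -0.19 and 0.29 in KO-labelled cells and between -0.25 and 0.20 in WT cells. The 95% intervals of single members reached out to -0.50 and 0.69 in KO-labelled cells and to -0.56 and 0.61 in WT cells, and 4 libraries a group set no tighter bounds. Esrra itself, the target of XCT790, was at 23.2 ± 4.51 CPM with XCT790 and 34.8 ± 4.83 CPM with CompA in KO-labelled cells, against 35.3 ± 5.13 CPM in KO-labelled stimulated cells.

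Stimulation in the presence of XCT790 raised most members, and the same comparison was not run for CompA. Against unstimulated cells, 39 members rose and 3 fell with stimulation and XCT790 in KO-labelled cells, where 39.6% of all tested genes rose and 39.4% fell, and 35 rose and 5 fell in WT cells, where 37.7% rose and 41.3% fell. The median log2 fold change was 1.2 in KO-labelled cells and 0.86 in WT cells. The WT libraries with XCT790 held few myeloid marker counts, at 19.0 ± 3.28 CPM, and their comparison does not use the WT stimulated libraries.

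Genes around the chain were taken from lists chosen with earlier results of these data known. Over all tested genes, 39.3% rose and 42.4% fell on stimulation in KO-labelled cells, and 34.5% rose and 38.8% fell in WT cells. Of 36 tested complex I subunits, 35 rose and 0 fell on stimulation in KO-labelled cells, with a median of 1.31, and 27 rose and 1 fell in WT cells, with a median of 0.71. Ndufab1, the mitochondrial acyl carrier protein, rose by 2.67 ± 0.15 in KO-labelled and 1.83 ± 0.15 in WT cells. In the full fit complex I was lower in KO-labelled than WT unstimulated cells, with 31 of 36 called and a median of -0.54, where 23.6% of all tested genes fell. That count uses the same WT unstimulated libraries as the members' calls, replicate 1 included. It was not read without that replicate or with only the groups compared. Of 35 tested assembly factors, 29 rose and 3 fell in KO-labelled cells and 23 rose and 3 fell in WT cells. Coa7, a complex IV assembly factor, rose by 2.1 ± 0.10 in KO-labelled and 1.45 ± 0.10 in WT cells, and Tmem70, which assists ATP synthase assembly, by 2.17 ± 0.12 and 1.49 ± 0.12. With CompA in KO-labelled cells 7 assembly factors fell, where 9.11% of all tested genes did, among them Coa7 at -0.61 ± 0.10 and Sco2, a copper carrier of complex IV, at -0.76 ± 0.13, and with XCT790 5 fell, where 5.07% of all tested genes did, among them Uqcc1, an assembly factor of complex III, at -0.49 ± 0.09.

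On the same background, among 8 other enzymes that feed electrons to ubiquinone, 6 rose and 2 fell in KO-labelled cells and 4 rose and 2 fell in WT cells on stimulation. Prodh, proline dehydrogenase, rose by 2.80 ± 0.13 in KO-labelled and 2.12 ± 0.13 in WT cells, and Dhodh, of pyrimidine synthesis, by 1.84 ± 0.13 and 1.27 ± 0.13, while Sqrdl, which oxidises sulfide, fell by 3.14 and 1.84. Of 12 tested regulators 8 rose in each genotype. Myc, a growth factor-induced transcription factor, rose by 2.89 ± 0.14 in KO-labelled and 2.55 ± 0.14 in WT cells, Pprc1, a coactivator of the PGC-1 family, by 1.70 ± 0.15 and 1.56 ± 0.15, and Tfb2m, a mitochondrial transcription factor, by 1.64 ± 0.10 and 1.36 ± 0.10. In unstimulated cells 1 regulator was called between genotypes, where 23.6% of all tested genes fell and 12.5% rose. It was Tfam, which packages mitochondrial DNA, at -0.33 ± 0.08 in KO-labelled over WT (edgeR adjusted p 0.0042). The Tfam call was likewise read from the full fit alone, with WT unstimulated replicate 1 included. The 13 subunits encoded by mitochondrial DNA were not analysed here.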

How the data were processed

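The deposited files, 1 for each of the 32 samples, hold raw read counts by gene: the values are whole and sum to unequal totals, without normalization. The submitters' processing notes name Trimmomatic 0.36, HISAT2 2.1.0, SAMtools, HTSeq 0.9.1, R 3.4.4, DESeq2 1.18.1 and the mm10 build. Settings, annotation and the strand option of HTSeq are not given in the sources used here. Several members have processed pseudogenes, reads with more than 1 place were listed apart from genes (58.6 to 91.3 per 100 gene counts), and such members may be undercounted. The 5 summary lines per file name no gene and stayed out of library sizes. Of the reads listed for a gene, outside genes or as ambiguous, 5.31 to 13.3% lay outside genes and 1.1 to 2.32% were ambiguous.

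Counts were tested with edgeR 4.0.16 (quasi-likelihood F test, TMM factors, default low-count filter; limma 3.58.1, R 4.3.3) in 1 fit of 32 libraries with a mean per group. The 17 contrasts were adjusted by Benjamini-Hochberg over 12332 genes, called at an adjusted p under 0.05, and the test was tested on simulated data. Groups and replicates follow the labels, with replicates numbered in accession order. Alternatives were library totals, upper-quartile factors, no filter, limma-voom, DESeq2 1.42.0, only the groups compared, the run of 4 library numbers in the titles as a block, each library left out, replicate 2 left out of every KO-labelled group, and subtraction of the unstimulated share in WT stimulated libraries. Deviations from group means correlated at 0.13 to 0.78 between same-run libraries in all KO-labelled pairs. In WT they correlated at 0.42 to 0.63 between unstimulated and stimulated libraries and at 0.23 to 0.64 between XCT790 and CompA. The other WT pairs of conditions ran from -0.33 to 0.37. The run thus pairs KO-labelled libraries across all conditions and WT libraries across some of them.

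Any member could be named. Values per library were given for a panel of members and for those with the largest or smallest fold change of their complex, members under 10 CPM in every group were given by level, and up to 4 genes of each other list were named by smallest adjusted p. The members, lists and alternatives were chosen with earlier results of these data known. Promoter sequences are from RefSeq (GRCm38.p6). All 49 symbols matched the annotation, 46 by symbol and 3 by synonym. Transcript lengths are those of the principal transcripts in the reference annotation.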

Additional observations from a re-analysis of the deposited data

Results flagged for a closer look

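Of 168 groups of 4 libraries checked, 8 had 1 library far from the other 3, where chance gives about 1 in 20. With XCT790, KO-labelled replicate 3 was low for Cycs (51.0 CPM), Cox7c (65.4 CPM), Atp5b (2030 CPM) and Atp5l (33.4 CPM). WT unstimulated replicate 1 was high for Cycs (26.4 CPM), WT stimulated replicate 4 low for Cox7a2l (137 CPM), WT replicate 2 with XCT790 high for Cox7b (327 CPM), and KO-labelled unstimulated replicate 4 high for the complex II sum (652.5 CPM).

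The response to stimulation differed between KO-labelled and WT cells in 39 members, all larger in KO-labelled cells. The test uses the same libraries as the genotype comparisons of unstimulated and of stimulated cells, so it is not independent of them. The log2 differences were 0.92 for Sdhd, 0.97 for Uqcrfs1, 0.84 for Cyc1, 0.81 for Uqcrh, 1.05 for Uqcrq and 0.92 for Cycs. In complex IV they were 0.85 for Cox4i1, 0.86 for Cox5a, 0.90 for Cox7b and 1.02 for Cox7c, and in ATP synthase 0.71 for Atp5b, 0.80 for Atp5g1, 0.83 for Atp5g3 and 1.03 for Atp5l. The response to XCT790 differed in 1 member that was higher, Cox7a2l (1.09), and 3 that were lower, Cycs (-0.56), Cox5a (-0.48) and Atp5b (-0.46). The CompA test uses the same stimulated libraries, and it called 1 member higher and 3 lower, with differences of 0.97 for Cox7a2l, -0.62 for Cycs, -0.52 for Cox5a and -0.46 for Atp5b.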

How the results depend on the processing

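The rise of 39 members on stimulation in KO-labelled cells stayed within 38 and 39 in every fit run, and the rise in WT cells was 29 by DESeq2 and between 26 and 36 with 1 library left out. Calls of 1 to 5 members were the least stable. With library totals the lower calls were 7 (stimulation, WT), 5 (stimulation, KO-labelled), 8 (XCT790, KO-labelled), 2 (CompA, WT), 9 (CompA, KO-labelled), 5 (stimulation with XCT790, KO-labelled), 27 (KO-labelled over WT, unstimulated), 6 (XCT790 by genotype) and 5 (CompA by genotype), and 6 members were higher in KO-labelled over WT stimulated cells. That scaling moved the median of all genes to -0.40 for stimulation in KO-labelled cells and to -0.28 for stimulation by genotype, where 882 of 4006 called genes were higher, against 2126 of 4161 with TMM, and for KO-labelled over WT unstimulated cells 2992 of 4175 called genes were higher, against 1543 of 4454. Under it the sums in KO-labelled unstimulated cells were 739 CPM for complex II, 1160 for III, 15.7 for cytochrome c, 1580 for IV and 3780 for ATP synthase. In WT cells with XCT790 they were 937 for II, 2410 for III, 71.4 for cytochrome c and 8380 for ATP synthase, and with CompA 969, 2560, 70.2, 2710 (IV) and 8710. Upper-quartile factors gave 7 lower on stimulation in WT, 5 lower for stimulation with XCT790 in KO-labelled cells and 2 higher in KO-labelled over WT stimulated cells. Without the low-count filter 4 were higher there, 0 lower in XCT790 over CompA in WT, and 8 and 5 lower in the XCT790 and CompA interactions with genotype. Limma-voom gave 5 and 5 in these interactions. DESeq2 gave 12 and 16 there, 9 lower with each inhibitor in KO-labelled cells, 0 higher with XCT790 in KO-labelled cells and 6 higher in KO-labelled over WT stimulated cells. Over all genes DESeq2 called 3927 of 12681 in the XCT790 interaction, 2171 of them higher. In the CompA interaction it called 3564 of 13018, 2009 of them higher.

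With only the groups compared in the fit, 2 members fell on stimulation in WT and 1 in KO-labelled cells, 3 were higher with XCT790 and 16 with CompA in WT, 0 were higher with XCT790 or CompA in KO-labelled cells, 0 were lower there with XCT790 and 2 with CompA, 1 was higher and 5 lower in XCT790 over CompA in WT, 15 were lower in KO-labelled over WT unstimulated cells, 0 higher in KO-labelled over WT stimulated cells, and 6 lower in the XCT790 interaction. With the run as a replicate block, 3 members were higher with XCT790 and 13 with CompA in WT, 9 lower with XCT790 and 10 with CompA in KO-labelled cells, and 18 and 23 lower in the interactions, and it moved no other count past 1.5 times. Over all genes, 1709 of 11105 were higher with CompA in WT with only the groups compared, and 2112 of 12332 with the block. With the unstimulated share subtracted, XCT790 in WT gave 0 higher and 0 lower, CompA in WT 2 higher and 2 lower, KO-labelled over WT stimulated cells 0 and 0, stimulation by genotype 6 higher, and both inhibitor interactions 0 higher and 0 lower. Cox7a2l, left without a count in WT stimulated replicate 2, then stood at 0.51 (XCT790, WT), 0.41 (CompA, WT), -0.18 (XCT790 by genotype) and -0.29 (CompA by genotype). Cycs then stood at -0.07 (KO-labelled over WT, stimulated).

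With 1 library left out, ranges were as follows. In WT, higher calls were 26 to 36 on stimulation, 32 to 37 on stimulation with XCT790, 0 to 1 with XCT790 and 3 to 7 with CompA, and lower calls 1 to 5, 3 to 6, 1 to 3 and 1 to 1, with 0 to 1 lower in XCT790 over CompA. In KO-labelled cells, lower calls were 3 to 4 on stimulation, 2 to 4 on stimulation with XCT790, 0 to 8 with XCT790 and 2 to 12 with CompA, and higher calls 0 to 1 with each inhibitor. KO-labelled over WT gave 11 to 42 lower in unstimulated cells, 0 to 9 higher and 1 to 2 lower in stimulated cells and 0 to 1 higher with XCT790. Stimulation by genotype gave 28 to 39 higher, and the lower calls were 1 to 16 for XCT790 and 1 to 25 for CompA by genotype. The cause of these shifts was not tested beyond the samples and scaling each alternative changes. At 16020288 to 23687940 gene counts a library, the tissue forms under 1 CPM rest on few reads.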
